A study of Mus musculus with 16 samples.

Results

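Mouse cells were compared before and after 2 h of forced ERK signalling. The comparison took 8 of the 16 RNA-seq libraries of the series: all 4 libraries labelled 2h and all 4 labelled 0h, with 2 libraries from clone 4 and 2 from clone 8 in each group. The cells were of the line CRAFR26, mouse embryonic stem cells that carry a c-RAF kinase construct which 4-hydroxytamoxifen (4OHT) switches on, differentiated to the state labelled RSC. Both groups had been grown in N2B27 medium with LIF, the Wnt secretion inhibitor IWP2 and the MEK inhibitor PD03, and for the last 48 h the FGF receptor inhibitor PD17 (250 nM) stood in place of PD03. The 0h group was harvested in that state, and the 2h group after 250 nM 4OHT for 2 h. No cells without the construct but with 4OHT were analysed here, so effects of the drug and of the kinase cannot be told apart. The 2 clones are 2 isolates of one line, and the labels do not say whether the libraries of a clone came from separate cultures, so p-values measure the spread between these libraries. In bulk RNA, a change in every cell and a change in the share of cells that express a gene cannot be told apart.

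RAF kinases phosphorylate MEK, MEK phosphorylates ERK, and active ERK and its kinase partners act on factors already in the nucleus, such as the ternary complex factors that bind beside SRF. The first genes to respond, the immediate-early genes, need no new protein and include EGR, FOS and JUN family factors. A second group encodes brakes on the same cascade, among them the Sprouty proteins and the dual-specificity phosphatases (DUSPs) that remove phosphate from ERK. In mouse pluripotent cells, FGF signalling through ERK drives the exit from the naive state, and inhibitors of MEK hold cells in it.

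Library totals were 4.88 to 5.98 M counts at 0h and 7.62 to 8.60 M at 2h in clone 4, and 7.03 to 9.12 M at 0h and 10.2 to 10.4 M at 2h in clone 8. The 8 most abundant features, each over 1% of the total and most of them ribosomal RNA or annotated over ribosomal repeats, together took 58.8% to 64.9% of every library except the 2h libraries of clone 8, where they took 46.7% to 52.1%. Outside them lay 1.83 to 3.56 M counts per library in the other groups and 5.01 to 5.46 M in the clone 8 2h libraries. The part of this difference in the clone 8 results was not tested. Principal components over all 16 libraries were taken from the most variable genes. The first held 51.0% of the variance of these genes, with negative scores for all clone 4 libraries and positive ones for all clone 8 libraries. On the third, which held 8.57%, all 0h libraries had positive scores and all 2h libraries negative ones. The libraries of the later 4 h group lay on the 0h side and those of the MEK-inhibitor reversal group on the 2h side. The labels name no batch, and the split coincides with whole groups, so a batch and the induction cannot be told apart on this axis. The cells carried pluripotency transcripts in both groups: Pou5f1 averaged 148 ± 2.8 CPM in the 0h libraries and 141 ± 17 CPM in the 2h libraries (SD, n = 4 each), where CPM is the count scaled to a common library size, and Sox2 averaged 222 ± 14 and 235 ± 5.9 CPM. Of 15 listed streak and mesoderm genes 3 had enough counts to be tested, and T, the streak marker, had at most 5 counts in any of these libraries.

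At 2h, 2162 of 12742 tested genes (17%) differed from 0h by edgeR's quasi-likelihood test with clone as covariate, at an adjusted p under 0.05. Of these, 1209 were higher (9.49% of tested genes) and 953 lower (7.48%), so that 55.9% of calls were rises. This split depends on the scaling: rises made up 78.0% of the 446 calls under library totals and 37.6% of the 2205 calls under totals outside the 8 abundant features described above. Most changes were small. The median absolute log2 change among called genes was 0.57, and 223 rises and 183 falls reached 1 on the log2 scale, a doubling or a halving of the level. With clone as covariate the large changes were almost all increases. There 58 called genes rose by at least 2 on the log2 scale and 2 fell by as much. Taken by clone, falls were a larger part: 114 rose and 42 fell by as much in clone 4, and 59 and 15 in clone 8. In 3557 genes (27.9%) the 2h libraries lay wholly above or wholly below the 0h libraries within each clone, in the same order in both. Of the called rises 1079, and of the called falls 854, were among them. The list counts below stand against 9.49% of all tested genes called higher and 7.48% called lower. Taken by clone, 1751 of the 12742 genes were called higher and 1268 lower in clone 4, and 975 and 1036 in clone 8.

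Of 23 listed immediate-early transcription factors 18 were tested, 11 rose and 1 fell, with a median log2 change of 1.38 against 0.003 for all tested genes. Egr1, a zinc-finger factor and the textbook ERK target, stood at 1.00 and 3.94 CPM in the clone 4 libraries and 1.45 and 2.01 CPM in the clone 8 libraries at 0h. At 2h it stood at 457 and 572 CPM in clone 4 and at 180 and 169 CPM in clone 8. Every 2h library was therefore far above every 0h library, and the log2 change was 7.30 ± 0.38 (SE, adjusted p = 3.45e-10). Egr3, its relative, had 1 count in all 0h libraries together and 228 counts at 2h. In clone 4, with no count at 0h, it was at least 52.8-fold higher, taking the floor of 3 counts over the group. In clone 8, where 1 count faced 24, the ratio was 14.5 (exact 95% interval 2.37 to 597, counting error only). Egr2 had too few counts to be tested, with at most 1 count in a 0h library and 34 in a 2h library.

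Several members of the AP-1 family, which binds DNA as FOS and JUN dimers, rose. The difference between the clones passed its test for Jun and not for Fos (adjusted p = 0.422), Junb (0.315) or Fosl2 (0.533). Fos was at 0.15 to 1.20 CPM in the 0h libraries, at 18.3 and 26.7 CPM at 2h in clone 4 and at 8.96 and 8.27 CPM at 2h in clone 8 (log2 change 4.58 ± 0.34, adjusted p = 6.63e-08). The groups did not overlap. Jun went from 1.40 and 1.06 CPM to 17.9 and 26.5 CPM in clone 4, but from 1.45 and 1.87 to 3.42 and 3.15 CPM in clone 8. Clone 4 thus changed by 4.18 on the log2 scale and clone 8 by 1.00, a difference of -3.18 ± 0.52 (SE, adjusted p = 1.48e-04). Junb (log2 change 1.80), Fosl2 (3.70), Fosl1 (1.72) and the small MAF protein gene Maff (2.27) rose too, whereas Jund (-0.21) did not pass the test. Of the exon length of Fosl1 57.2% lies opposite another annotated gene, whose reads cannot be told apart from its own if strand was not used. Myc, the growth regulator, showed the reverse order of the clones. It stood at 0.58 to 2.28 CPM in the 0h libraries, at 13.2 and 13.3 CPM at 2h in clone 4 and at 39.3 and 36.4 CPM at 2h in clone 8. With clone as covariate the only called fall of the list was Nfil3, a bZIP repressor (log2 change -0.93). That call was lost when any of 7 of the 8 libraries was left out (-0.99 to -0.66). Taken by clone, Nfil3 was called in neither, and 1 other member was called lower in clone 8. Srf itself (0.34), Atf3 (0.09) and the orphan receptor gene Nr4a1 (0.19) did not pass the test.

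Of 31 further immediate-early genes listed 29 were tested, 19 rose and 3 fell, with a median log2 change of 0.84. Phlda1, a PH-domain protein gene, had 0.15 to 0.60 CPM at 0h and 3.57 to 5.67 CPM at 2h, and 33% of its exon length lies opposite another gene. Plaur, the urokinase receptor, had 0.21 to 1.52 CPM at 0h, 10.4 and 11.2 CPM at 2h in clone 4 and 2.89 and 3.79 CPM at 2h in clone 8. Arc, a synaptic immediate-early gene, was higher before induction, at 10.9 to 16.2 CPM, and rose to 109 and 145 CPM in clone 4 and to 33.4 and 31.2 CPM in clone 8. The rise of 3.45 on the log2 scale in clone 4 and of 1.01 in clone 8 differed, and the difference passed its own test (adjusted p = 1.23e-09). The early genes that fell were Nfkbia, the inhibitor of NF-kappaB, the stress cytokine gene Gdf15 and Gadd45b. Nfkbia stood at 12.8 to 16.6 CPM at 0h and at 5.77 to 9.26 CPM at 2h, with no overlap (log2 change -0.93 ± 0.15). Gadd45b had a log2 change of -0.56, and its call was lost when any of 5 libraries was left out.

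Of 21 tested feedback inhibitors, the brakes on the cascade, 9 rose and 1 fell. Spry4, a Sprouty that restrains RAS signalling, stood at 1.00 to 3.45 CPM at 0h, at 120 and 141 CPM at 2h in clone 4 and at 82.4 and 78.9 CPM at 2h in clone 8. Its log2 change was 5.6 ± 0.35 (SE, adjusted p = 4.42e-09). Dusp6, a phosphatase that acts on ERK in the cytoplasm, stood at 1.20 to 3.84 CPM at 0h and at 28.0 to 35.4 CPM at 2h, so that the 2h libraries of both clones lay together (log2 change 3.35 ± 0.36). Dusp4 and Dusp5, nuclear phosphatases, rose by 2.29 and 2.12 on the log2 scale, Spry2 by 1.45 and Spred1, another membrane inhibitor, by 1.41. Spry1 (0.02), Spred2 (0.13) and Dusp9 (0.22) did not pass the test. The called rise of Dusp8 (log2 change 2.20) was lost without the 0h library 2 or the 2h library 2 of clone 4 (1.54 and 1.70), and the called fall of Dusp7 (-0.55) was lost when any of 4 libraries was left out (-0.53 to -0.43).

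ETS factors include effectors of the pathway, and 8 of 17 tested members rose while 1 fell. Erf, an ETS repressor that ERK inactivates by phosphorylation, had 49.3 to 53.1 CPM at 0h and 85.5 to 104 CPM at 2h in both clones alike (log2 change 0.91 ± 0.09, adjusted p = 1.61e-06). Etv4 and Etv1, 2 PEA3-family targets of FGF signalling, had log2 changes of 1.40 and 1.02, and each call was lost when any of 5 libraries was left out. Elf3, an epithelial ETS factor, fell from 31.5 to 39.0 CPM at 0h to 10.6 to 17.7 CPM at 2h (log2 change -1.40 ± 0.21). Without the 0h library 1 of clone 4 the count of called rises in this list was 3, without the 0h library 2 of that clone 5, and without the 2h library 2 of clone 8 it was 4. Of the 18 cascade members themselves 4 were called with clone as covariate, all higher; 4 others were lower at an unadjusted p under 0.05, and DESeq2 called none lower. Taken by clone, 1 member was called lower in each. Esr1, the estrogen receptor gene, stood at 10.6 and 12.1 CPM at 0h and 18.3 and 20 CPM at 2h in clone 4, and at 4.25 and 3.31 CPM at 0h and 7.45 and 7.57 CPM at 2h in clone 8 (log2 change 0.83 ± 0.15). The construct answers to tamoxifen, and reads of a transgene that shares sequence with Esr1 cannot be told apart from its own. Mapk3, which encodes the kinase ERK1, had a log2 change of -0.44 and did not pass the test. The cascade count was 2 when any of 4 libraries was left out, the 0h libraries 1 and 2 of clone 4, the 2h library 2 of clone 4 and the 2h library 2 of clone 8.

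**Figure D1:**
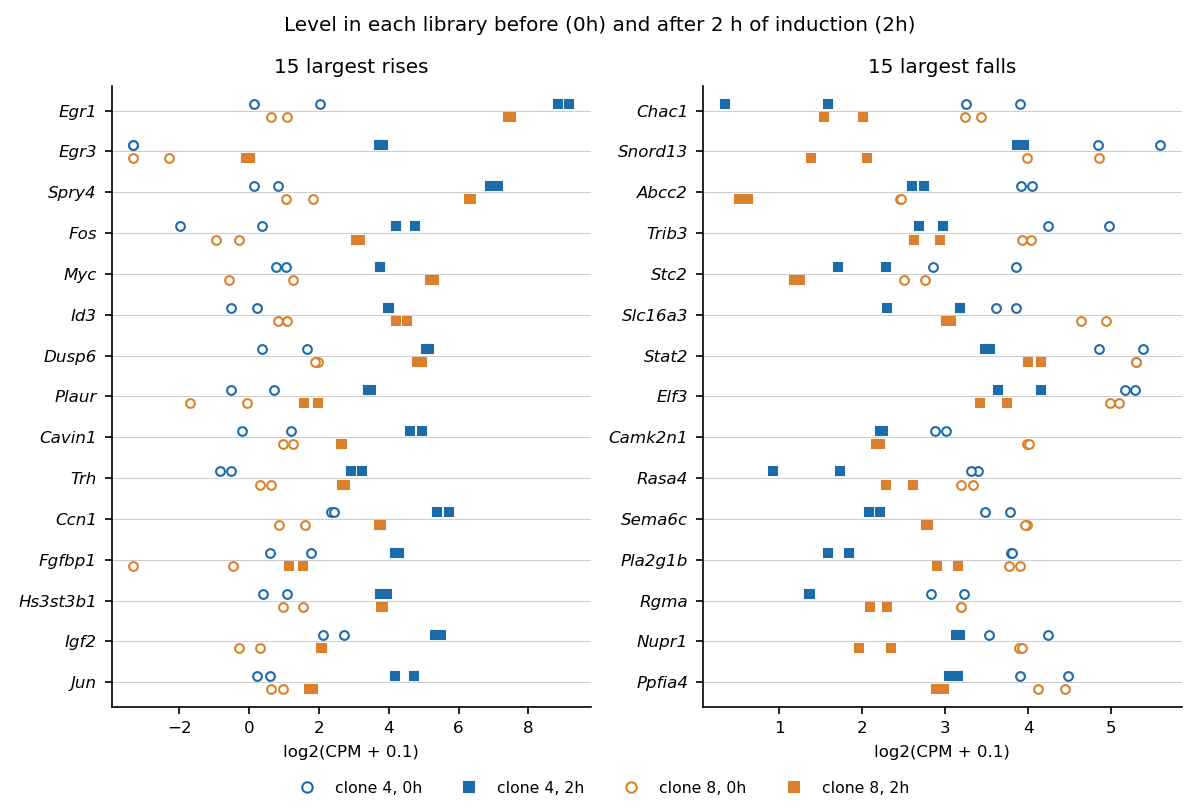
Level of the 15 largest rises (left) and falls (right) in each of the 8 libraries, as log2(CPM + 0.1). They were taken among called genes that met the count, name and non-overlap rules. Open circles are 0h, filled squares 2h, blue clone 4 and orange clone 8. Within each clone the 2h libraries lie on one side of the 0h libraries for all 30 genes because the rule required it. For Egr1, Egr3, Jun and Igf2 the 2h level is higher in clone 4 than in clone 8.

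Genes of the cytoskeleton and of cell adhesion that SRF or YAP are known to drive formed a further group. Of 24 tested members 12 rose, with a median log2 change of 0.60. Neither edgeR nor DESeq2 called a member lower with clone as covariate, and 1 was lower at an unadjusted p under 0.05. Axl, a receptor tyrosine kinase gene, had the most negative change (-0.75, adjusted p = 0.113). Ccn1, a matricellular protein gene and a YAP target, stood at 4.99 and 5.31 CPM at 0h and 41.6 and 52.9 CPM at 2h in clone 4, and at 2.91 and 1.72 CPM at 0h and 13.1 and 13.7 CPM at 2h in clone 8. Cavin1, a coat protein gene of caveolae, went from 0.76 to 2.30 CPM in the 0h libraries to 24.5 and 30.7 CPM in clone 4 and to 6.23 and 6.03 CPM in clone 8. Its difference between the clones passed the test (-2.73 ± 0.51, adjusted p = 6.71e-04). Thbs1, the gene of the matrix protein thrombospondin 1, had 3 counts in all 0h libraries and 72 at 2h, a ratio of 16 (exact 95% interval 5.25 to 79.3, counting error only). Actg1, cytoplasmic gamma actin, stood at 116 and 114 CPM at 0h and 174 and 172 CPM at 2h in clone 4, and at 72.9 and 72.3 CPM at 0h and 143 and 142 CPM at 2h in clone 8. Actb, the beta actin gene, changed by 0.13 and was not called. Of 18 tested genes of simple keratins and epithelium 6 rose and 2 fell with clone as covariate. Taken by clone, 8 were called higher and 2 lower in clone 4, and 1 higher and 2 lower in clone 8, with no shared rise. The simple keratins Krt8 and Krt18, partners in one filament, rose in clone 4 by 2.90 and 2.66. In clone 8 their changes were 0.93 and 0.64 and did not pass the test, and the difference between the clones passed it for both (adjusted p = 0.0481 and 0.0108).

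SRF binds the CArG box, spelled CC, 6 of A or T, GG. In RefSeq promoter windows (GRCm38.p6) the 250 bases before the start of 26 of the 33 genes of the SRF and YAP list could be read, and 6 (23.1%) held a CArG box on either strand, against 1.32% of the 9494 promoters of tested genes. The list was drawn up from known targets of this factor, so the share describes the list and not the response. The box was found in 2.73% of the 330 promoters of genes raised in both clones and in 1.23% of the 243 of genes lowered in both. Egr1, Egr3, Spry4 and Myc have no entry in that table. The stretches below are shown because they hold the box in genes that rose here: Igf2 and Zfp36 among the named rises and immediate-early genes, and Actg1 and Vcl from the cytoskeletal list, these last chosen after their values were seen. Zfp36 encodes a protein that promotes decay of AU-rich mRNAs, and Vcl encodes vinculin of focal adhesions. Capitals mark the CArG box, each strand is that of the gene, and each match is a description of the letters and not a shown binding site.
Igf2 (chr7:142661392-142661451, minus strand): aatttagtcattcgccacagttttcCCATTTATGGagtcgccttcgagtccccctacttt
Zfp36 (chr7:28379252-28379311, minus strand): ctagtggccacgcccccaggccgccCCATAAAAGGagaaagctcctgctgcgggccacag
Actg1 (chr11:120348551-120348610, minus strand): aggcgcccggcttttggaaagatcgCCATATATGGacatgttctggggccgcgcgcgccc
Vcl (chr14:20929148-20929205, plus strand): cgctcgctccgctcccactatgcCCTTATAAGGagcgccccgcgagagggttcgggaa
These genes rose by 2.73, 1.03, 0.79 and 0.46 on the log2 scale. The CRE, TGACGTCA, was found in 3.12% of all promoters of tested genes, in 6.06% of those raised in both clones and in 1.23% of those lowered in both. The AP-1 site TGANTCA was found in 4.95%, 5.15% and 5.76% of these sets, and the EGR site GCGTGGGCG in 1.30%, 1.82% and 2.47%.

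Of 11 tested members of the BMP pathway 4 rose. With clone as covariate none was lower by edgeR, by DESeq2 or at an unadjusted p under 0.05, and the members not called ran from Smad1 at -0.10 to Id2 at 0.43. The ID proteins block bHLH factors and are the standard readout of BMP signalling. Id3 stood at 0.60 to 2.01 CPM at 0h and at 15.6 to 23.0 CPM at 2h, with both clones close to each other (log2 change 3.71 ± 0.28, adjusted p = 7.10e-08). Id1 stood at 0.14 to 0.80 CPM at 0h and 2.07 to 3.11 CPM at 2h. Bmp4, a ligand of the pathway, was likewise higher in all 2h libraries, with 2.90 to 3.57 CPM against 0.80 to 1.15 CPM. Id4 rose by 0.88, a call lost without the 0h library 2 of clone 4, the 0h library 2 of clone 8 or the 2h library 1 of clone 8 (0.74 to 0.85).

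In the Nodal branch of TGF-beta signalling, which sustains primed pluripotency, 4 of 17 tested genes rose and 1 fell. Smad7, an inhibitor of the receptors, stood at 19.9 to 43.4 CPM at 0h and at 90.3 to 120 CPM at 2h (log2 change 1.68 ± 0.24). Acvr2a, a type II receptor, stood at 8.79 to 11.8 CPM at 0h and at 21.5 to 24.1 CPM at 2h, equal in the clones (log2 change 1.15 ± 0.11, adjusted p = 1.59e-06). Tdgf1, the co-receptor Cripto, rose by 0.61. Nodal itself was at 31.8 to 41.2 CPM at 0h and 39.7 to 48.4 CPM at 2h and was not called (log2 change 0.21 ± 0.11, adjusted p = 0.185). Lefty1 and Lefty2, secreted Nodal antagonists, went in opposite directions in the clones and are given with the clone comparison.

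The medium held LIF throughout, and 6 of 13 tested genes of the LIF and STAT3 pathway rose while 1 fell. Socs3, the feedback inhibitor of the receptor, stood at 12.9 to 18.7 CPM at 0h and 23.3 to 31.8 CPM at 2h (log2 change 0.86 ± 0.15). Stat3 (0.55), Jak1 (0.58) and Lifr (0.45) rose too. Gbx2, a homeobox gene, rose by 1.49, a call lost without the 2h library 2 of clone 8 (1.30), and 43.5% of its exon length lies opposite another gene. Cish, a further SOCS family inhibitor, had 0.58 to 3.64 CPM at 0h and 0.26 to 1.52 CPM at 2h, ranges that overlapped, and its call (log2 change -1.43) was lost when any of 4 libraries was left out. Among 7 tested Wnt targets none was called by edgeR or DESeq2 with clone as covariate, and 1 had an unadjusted p under 0.05. Taken by clone, edgeR called 2 higher and 1 lower in clone 4 and 1 lower in clone 8, and the change of 3 differed between the clones. Axin2 had the most positive change at 0.41 and Ccnd1 the most negative at -0.46.

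The pluripotency network changed in some members. Of 14 naive-state genes 5 rose and 1 fell with clone as covariate. In clone 4 7 were called higher and 2 lower, in clone 8 3 higher and 3 lower, and 1 of them had opposite calls. The change of 6 differed between the clones. Nr5a2, a nuclear receptor, went from 48.1 and 55.2 CPM to 91.4 and 145 CPM in clone 4 and from 51.9 and 54.6 to 62.9 and 63.0 CPM in clone 8, and its log2 change of 0.70 lost its call without the 0h library 1 of clone 4 (0.56). Klf5 rose by 0.65, Tbx3 by 0.58 and Zfp42, also known as Rex1, by 0.43. Prdm14, a repressor of FGF signalling in naive cells, had 27.0 and 20.6 CPM at 0h and 9.60 and 8.85 CPM at 2h in clone 4, but 31.1 and 36.4 CPM at 0h and 28.0 and 30.1 CPM at 2h in clone 8; the difference between the clones passed its test (adjusted p = 6.71e-04). Its call across both clones (log2 change -0.67) was lost when any of the 4 clone 4 libraries was left out (-0.66 to -0.53). Nanog averaged 440 ± 110 CPM at 0h and 456 ± 140 CPM at 2h, and Klf4 84.8 ± 26 and 92.4 ± 34 CPM, and neither was called. Without the 0h library 1 of clone 4 the count of called rises among naive genes was 3. Of 15 general pluripotency genes 5 rose. With clone as covariate none was lower by edgeR, by DESeq2 or at an unadjusted p under 0.05, with Pou5f1 (-0.07) and Sall4 (-0.16) among those not called. Dppa2 stood at 23.3 to 34.5 CPM at 0h and at 39.5 and 43.3 CPM at 2h in clone 4 and 85.2 and 91.3 CPM in clone 8 (log2 change 1.12 ± 0.15). When libraries were scaled by their totals, 2 naive genes and 1 general gene were called higher.

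Formative and primed genes, which mark the next stage, were split. Of 14 tested members 3 rose (21.4%) and 2 fell (14.3%), against 9.49% and 7.48% of all tested genes. Zic2, a zinc-finger factor, stood at 58.7 and 61.2 CPM at 0h and 101 and 114 CPM at 2h in clone 4, and at 22.8 and 23.0 CPM at 0h and 35.1 and 32.7 CPM at 2h in clone 8 (log2 change 0.71 ± 0.14). Its neighbour in the family, Zic5, rose by 0.61, a call lost when any of 5 libraries was left out (0.48 to 0.66). Otx2, a homeobox factor of the formative and rosette states, was at 14.2 and 15 CPM at 0h and 12.2 and 8.29 CPM at 2h in clone 4, and at 9.96 and 11.1 CPM at 0h and 4.18 and 4.35 CPM at 2h in clone 8 (log2 change -0.90 ± 0.19). Fgf5, the usual primed marker, had at most 4 counts in any of these libraries. The de novo DNA methyltransferase genes Dnmt3a (-0.18) and Dnmt3b (-0.13) were not called. Among 14 tested genes of rosette polarity and the lumen 3 rose, among them Itgb1 of integrin adhesion by 0.63 and the junction gene Mpp5 by 0.31, and with clone as covariate neither edgeR nor DESeq2 called one lower. Taken by clone, 1 was called lower in clone 4 and 3 in clone 8. Podxl, which coats the lumen, had -0.39 and was not called, and 1 member was lower at an unadjusted p under 0.05.

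Some lineage genes rose, several of them from a few counts per library. Evx1, an early streak gene, had at most 4 counts in a 0h library and rose from 0.00 to 0.61 CPM at 0h to 3.59 and 4.02 CPM in clone 4 and 0.91 and 1.05 CPM in clone 8. Eomes, a T-box factor, stood at 1.67 to 2.80 CPM at 0h and 3.95 to 7.0 CPM at 2h. The remaining gene of the 3 tested in the streak and mesoderm list was not called with clone as covariate. It was lower at an unadjusted p under 0.05, and in clone 4 alone it was called lower. Of 7 tested trophoblast genes 3 rose with clone as covariate, Plac1, Hand1 and Krt7, each below 5 CPM in every library, while the defining factors Cdx2 and Elf5 had at most 4 counts; without the 0h library 1 of clone 4 the call of Plac1 was lost (1.92). Taken by clone, 4 were called higher in clone 4 and 2 lower in clone 8, and no rise was shared. The summed level of the list went from 79.1 to 89.9 CPM at 0h to 106 to 117 CPM at 2h in clone 4 and from 80.8 to 86.9 to 54.8 to 56.3 CPM in clone 8. With only the 0h and 2h libraries in the fit 4 members were tested, and the 3 calls were lost. Of 9 tested primitive endoderm genes 3 rose, the basement membrane collagens Col4a1 (0.56) and Col4a2 (0.70) and Dab2 (1.27), the last a call lost when any of 5 libraries was left out, and Gata6 and Sox17 had at most 10 counts. The summed level of the primitive endoderm list went from 631 to 650 CPM at 0h to 580 to 614 CPM at 2h in clone 4 and from 745 to 751 to 857 to 894 CPM in clone 8. Of 6 tested neural genes Pax6 rose by 1.31 and Sox1 fell by 0.88, a call lost when any of 5 libraries was left out. With clone as covariate none of the 3 tested fibroblast genes, Vim (0.32), Fn1 and Col5a1, was called by edgeR or DESeq2 or had an unadjusted p under 0.05, and Col1a1, Col3a1 and Postn had at most 9 counts. Taken by clone, 1 of the 3 was called higher in clone 8. The part of such cells in the results was not tested.

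Of 37 tested genes of the amino-acid response that the factor ATF4 runs 10 fell and 1 rose, and all 10 fell in each clone on its own. In clone 4 13 were called lower and 3 higher, and in clone 8 11 were called lower and none higher. Chac1, which degrades glutathione and is a marker of this response, stood at 14.8 and 9.40 CPM in clone 4 and 10.7 and 9.34 CPM in clone 8 at 0h, and at 1.17 and 2.90 CPM and 2.81 and 3.93 CPM at 2h. Its log2 change was -2.03 ± 0.37 (SE, adjusted p = 0.00122), the largest named fall. Trib3, a pseudokinase induced by ATF4, stood at 15.1 to 31.4 CPM at 0h and 6.08 to 7.74 CPM at 2h (log2 change -1.51 ± 0.23). Stc2, the glycoprotein stanniocalcin 2, fell by 1.43, and Nupr1, a stress-induced chromatin protein gene, by 1.25. Ddit4, an inhibitor of mTORC1, was at 24.3 to 35.2 CPM at 0h and 11.3 to 21.3 CPM at 2h. Atf4 itself was at 116 to 146 CPM at 0h and at 95.3 to 102 CPM at 2h (log2 change -0.39 ± 0.10), a call lost under library totals (-0.29) and under a correction for GC content (-0.26). The amino-acid synthesis genes Asns (0.12), Psat1 (-0.17) and Phgdh (0.10) were not called, and neither were the transporters Slc7a11 (0.26) and Slc7a5 (-0.24). The only rise with clone as covariate was Sesn2 (0.33), a stress-induced inhibitor of mTORC1. Its call was lost when any of 6 libraries was left out (0.22 to 0.34). With library totals 5 falls were called in this list, and with totals outside the abundant features 14. Genes of the unfolded protein response in the endoplasmic reticulum gave 1 rise and 1 fall among 15. Each is 6.67%, against 9.49% called higher and 7.48% called lower among all tested genes. Hspa5, the chaperone BiP, was at 0.03.

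Among 25 tested hypoxia and glycolysis genes 5 fell, and 10 were lower at an unadjusted p under 0.05. None was higher at that level, by edgeR or by DESeq2, with clone as covariate. Taken by clone, 12 fell in clone 8, where the median log2 change was -0.37, and 5 fell and 1 rose in clone 4, where it was 0.03. Of these 2 fell in both, and the change of 7 members differed between the clones. Slc16a3, the lactate exporter MCT4, stood at 14.4 and 12.1 CPM at 0h and 8.95 and 4.84 CPM at 2h in clone 4, and at 24.8 and 30.6 CPM at 0h and 8.28 and 7.99 CPM at 2h in clone 8 (log2 change -1.42 ± 0.19). Tpi1 and Pfkl, enzymes of glycolysis, fell by 0.66 and 0.50, and the larger change of Tpi1 in clone 8 (-0.98 against -0.29) passed the test of the difference (adjusted p = 0.0323). Vegfa, the vascular growth factor, fell by 0.70, a call lost when any of 6 libraries was left out (-0.74 to -0.50). Gapdh (-0.05) and Ldha (-0.22) were not called. With library totals 1 fall was called and with totals outside the abundant features 11.

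The other named falls shared no list. Stat2, a mediator of interferon signalling, stood at 28.8 to 41.8 CPM at 0h and at 11.1 to 17.7 CPM at 2h (log2 change -1.41 ± 0.13, adjusted p = 1.07e-06), with no overlap. Abcc2, an organic anion exporter, stood at 15 and 16.4 CPM at 0h and 5.96 and 6.63 CPM at 2h in clone 4, and at 5.4 and 5.46 CPM at 0h and 1.44 and 1.33 CPM at 2h in clone 8. Rasa4, a GTPase-activating protein for RAS, fell by 1.33. Rgma, a membrane-bound BMP co-receptor gene, fell by 1.28, Sema6c, a semaphorin, by 1.33, and Pla2g1b, a secreted phospholipase, by 1.31. Camk2n1, an inhibitor of CaM kinase II, fell by 1.36 and Ppfia4, a liprin, by 1.24. Snord13, a small nucleolar RNA, stood at 15.7 to 48.1 CPM at 0h and at 2.51 to 15.3 CPM at 2h, and such short RNA is captured unevenly by libraries of this kind.

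Of 15 tested p53 targets 10 rose, with a median log2 change of 0.52, and 9 rose in both clones. With clone as covariate none was lower by edgeR, by DESeq2 or at an unadjusted p under 0.05, and in clone 4 alone 1 was called lower. With library totals 6 rises were called. Mdm2, the ubiquitin ligase that restrains p53, stood at 93.7 to 94.5 CPM in the 0h libraries, at 138 and 157 CPM at 2h in clone 4 and at 174 and 173 CPM at 2h in clone 8 (log2 change 0.77 ± 0.08, adjusted p = 7.30e-06). Pmaip1, the death gene Noxa, stood at 4.00 and 1.67 CPM at 0h and 18.5 and 22.7 CPM at 2h in clone 4, and at 16.1 and 19.4 CPM at 0h and 48.7 and 50.5 CPM at 2h in clone 8. Plk2, also an immediate-early gene, rose by 1.16 and Eda2r, a death receptor of the TNF family, by 0.87. Bax (0.01) and Bbc3 (0.04), the gene of Puma, were not called. Several members, Cdkn1a, Btg2 and Plk2 among them, are known to respond to ERK as well.

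Cell-cycle genes moved in both directions, with 6 rises and 3 falls among 20. Cdkn1a, the inhibitor p21, stood at 33.6 and 30 CPM at 0h and 60.9 and 72.0 CPM at 2h in clone 4, and at 26.3 and 30.3 CPM at 0h and 35.6 and 36.2 CPM at 2h in clone 8. Cdk6, a kinase of G1, rose by 1.31 and Ccne2, cyclin E2, by 0.65. Cdkn1b, the inhibitor p27, went from 34.6 and 30.8 CPM to 15.7 and 15.3 CPM in clone 4 and from 57.8 and 55.3 to 50.4 and 47.9 CPM in clone 8; the difference between the clones passed its test (adjusted p = 6.55e-04). Cdk2 fell by 0.49 and Ccnd3, cyclin D3, by 0.41. Ccnd1, cyclin D1 and a usual ERK target, was not called (-0.46). Ccnd2, with at most 2 counts in a 0h library and 36 in a 2h library, was not called either (adjusted p = 0.0547).

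Genes of sterol synthesis and uptake gave 9 rises and 1 fall among 26. Cyp51, a demethylase of lanosterol, stood at 52.7 to 58.3 CPM at 0h, at 146 and 153 CPM at 2h in clone 4 and at 71.6 and 75.9 CPM at 2h in clone 8. Insig1, the feedback regulator of the pathway, rose by 0.71, and Hmgcs1, an early enzyme, by 0.63. In these 3 genes the rise was larger in clone 4, and the difference passed its test. With library totals 3 rises were called.

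Ribosome biogenesis gave 10 small rises among 40. Neither tool, edgeR or DESeq2, called a fall with clone as covariate, and 3 members were lower at an unadjusted p under 0.05. In clone 4 alone 2 were called lower. Wdr43, a part of the small-subunit processome, stood at 81.9 to 96.1 CPM at 0h and at 115 to 141 CPM at 2h (log2 change 0.51 ± 0.07, adjusted p = 8.02e-05). Utp20 and Nop58, both of ribosomal RNA processing, rose by 0.48 and 0.45, and Rrn3, an initiation factor of RNA polymerase I, by 0.40. None of these 10 was called under library totals, which moved the median of all genes by 0.11 on the log2 scale, and totals outside the abundant features gave 5 rises and 2 falls. With a minimum count of 30 1 fall was called. Without the 0h library 1 of clone 4 the count was 5, and without the 0h library 1 of clone 8 or the 2h library 2 of clone 4 it was 6. Of 52 tested ribosomal protein genes 1, Rplp1, was called lower (log2 change -0.31), and that call was lost when any of 5 libraries was left out.

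Imprinted growth genes rose in 5 of 15 tested cases. With clone as covariate edgeR called none lower, DESeq2 called 1, and 1 was lower at an unadjusted p under 0.05. Taken by clone, 2 were called lower in clone 8, 1 of them called higher in clone 4. H19 and Igf2 share one imprinted domain. H19 stood at 40.2 and 38 CPM at 0h and 96.2 and 116 CPM at 2h in clone 4, but at 0.93 and 0.86 CPM at 0h and 4.33 and 5.47 CPM at 2h in clone 8, so that the clones differed more from each other than the times did. Igf2, a growth factor, stood at 4.2 and 6.52 CPM at 0h and 39.8 and 44.8 CPM at 2h in clone 4, and at 1.14 and 0.72 CPM at 0h and 4.10 and 4.14 CPM at 2h in clone 8. Of its exon length 62.8% is shared with another gene model on the same strand, so its counts are uncertain. Peg10, a retrotransposon-derived gene, rose by 1.65 ± 0.16 from levels of 90.7 and 103 CPM in clone 4 and 17.7 and 20 CPM in clone 8. Cdkn1c, the inhibitor p57, rose by 1.62, and 30.7% of its exon length lies opposite another gene. Rises among the other largest were Trh, the thyrotropin-releasing hormone gene (0.46 to 1.44 CPM at 0h, 6.24 to 9.21 CPM at 2h), Hs3st3b1, a heparan sulfate sulfotransferase (1.21 to 2.80 CPM and 13.4 to 15.3 CPM), and Fgfbp1, an FGF carrier protein gene (0.00 to 3.33 CPM and 2.10 to 19.6 CPM). Fgfbp1 overlapped between the groups when the clones were pooled but not within a clone.

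**Figure D2:**
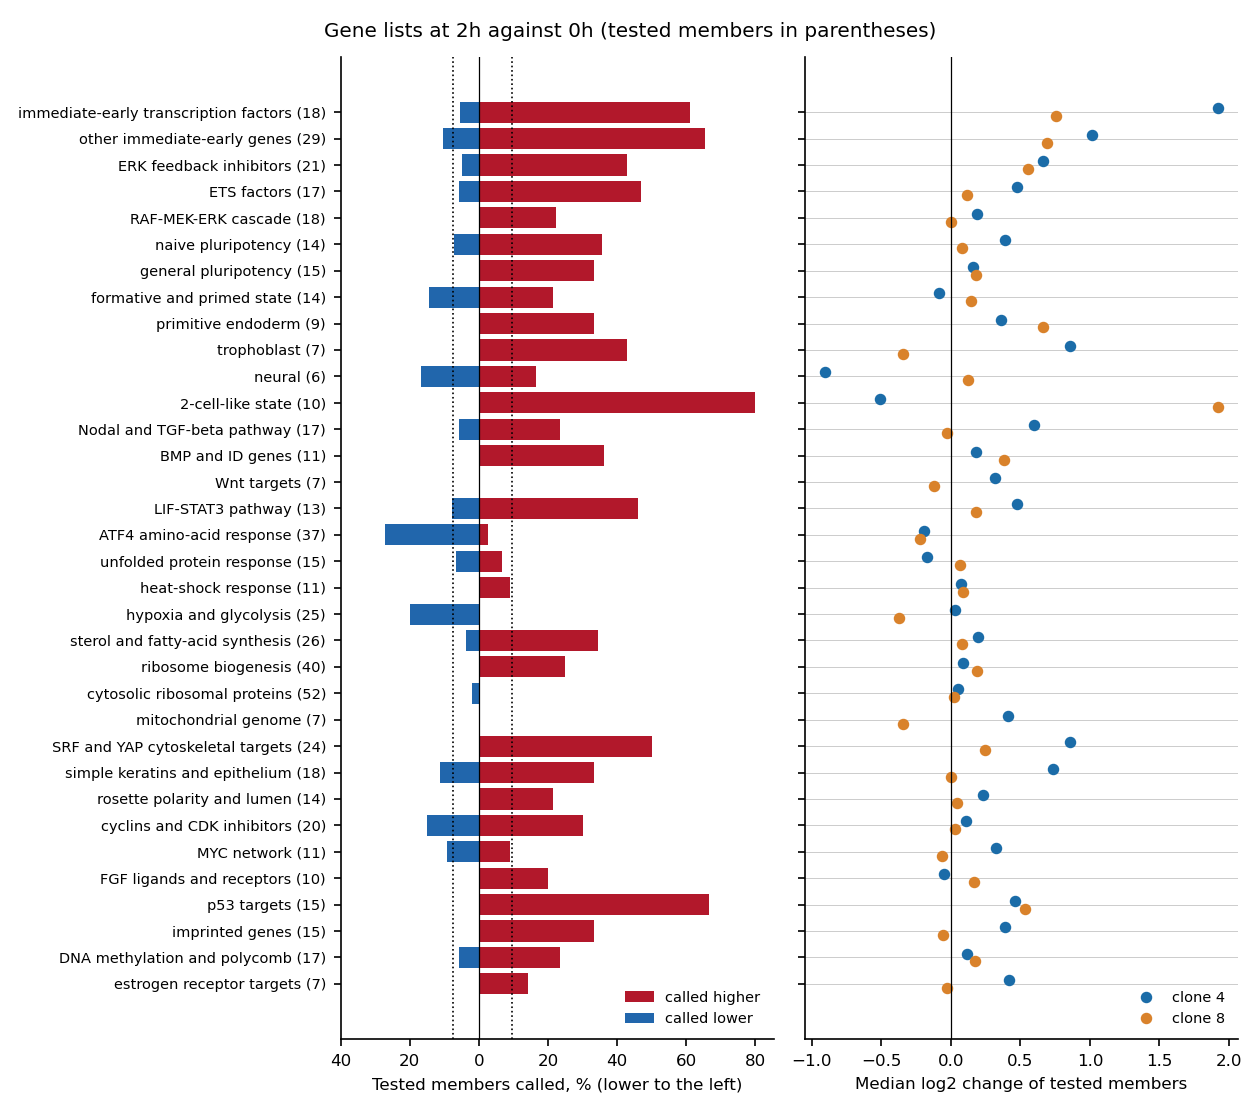
Left, share of the tested members of each list called higher (red, to the right) or lower (blue, to the left) at 2h against 0h; dotted lines mark the shares of all tested genes, 9.49% and 7.48%. Right, median log2 change of the same members in clone 4 (blue) and clone 8 (orange); the 2-cell list lies at -0.51 in clone 4 and 1.92 in clone 8.

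In absolute level, the largest gain of a called protein-coding gene was that of Eef1a1, a translation elongation factor, from 1687 ± 71 to 2191 ± 128 CPM (SD, n = 4). Egr1 followed, from 2.10 ± 1.3 to 345 ± 202 CPM, where the SD at 2h holds the difference between the clones. Rif1, a telomere and replication factor expressed in pluripotent cells, rose from 456 ± 52 to 713 ± 175 CPM, Arid5b, a chromatin cofactor, from 133 ± 11 to 351 ± 156 CPM, and Ncl, nucleolin, from 997 ± 41 to 1203 ± 57 CPM. The largest losses were those of Pkm, pyruvate kinase, from 573 ± 78 to 479 ± 69 CPM, Fkbp4, a co-chaperone of steroid receptors, from 367 ± 114 to 282 ± 118 CPM, and Ddx17, an RNA helicase, from 249 ± 3.7 to 193 ± 11 CPM. Cdh1, E-cadherin, went from 364 ± 84 to 312 ± 88 CPM. The calls of Ncl, Pkm, Cdh1 and Rplp1 were lost when any of 3, 5, 4 and 5 libraries was left out. Under library totals these calls and those of Eef1a1, Rif1, Fkbp4 and Ddx17 were lost, and those of Egr1 and Arid5b were kept.

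When every pairing of group with clone had its own mean, 3019 genes were called in clone 4 (23.7%) and 2011 in clone 8 (15.8%). The number called in both in the same direction was 758 (5.95%), of which 439 were higher (3.45%) and 319 lower (2.5%). This count was 359 to 490 when any clone 8 library was left out, 392 by DESeq2 and 146 under library totals. These shared genes made up 25.1% of the clone 4 calls and 37.7% of the clone 8 calls, and 745 of them were also called with clone as covariate. Among the 439 shared rises 310 were larger in clone 4, with a median rise of 0.70 in clone 4 against 0.54 in clone 8. Among the 319 shared falls 200 were larger in clone 4, with medians of -0.79 and -0.67. These sizes depend on the scaling: under library totals the median log2 change of all tested genes was -0.21 in clone 4 and 0.37 in clone 8. The test of the difference itself was passed by 59 of the 758, 47 rises and 12 falls, and 44 of those 47 rises were larger in clone 4. By the smaller of their 2 changes the leading shared rises were Egr1, Spry4, Fos, Egr3, Id3 and Dusp6, and the leading shared falls Chac1, Stc2, Snord13, Abcc2, Elf3 and Stat2. Across all tested genes the changes of the clones had a Pearson correlation of 0.361, and of 0.468 over the 8755 genes with at least 50 counts, given as a description since genes are not replicates.

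A call in 1 clone alone was mostly no shown difference. Of 2175 genes called in clone 4 and not in clone 8, 552 (25.4%) passed the test of the difference, and 1561 (71.8%) had the same sign in clone 8. Of 1167 genes called in clone 8 and not in clone 4, 244 (20.9%) passed it and 745 (63.8%) had the same sign. In all, the change differed between the clones in 1012 genes (7.94%). Of the immediate-early transcription factors 7 of 18 passed this test, 6 of them with the more positive change in clone 4. Of the feedback inhibitors 7 of 21 passed it, again 6 with the more positive change in clone 4. The summed level of the early transcription factors went from 138 to 157 CPM at 0h to 783 to 957 CPM at 2h in clone 4, and from 143 to 145 CPM to 360 to 376 CPM in clone 8. In the SRF and YAP list 7 of 24 differed, all 7 more positive in clone 4.

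**Figure D3:**
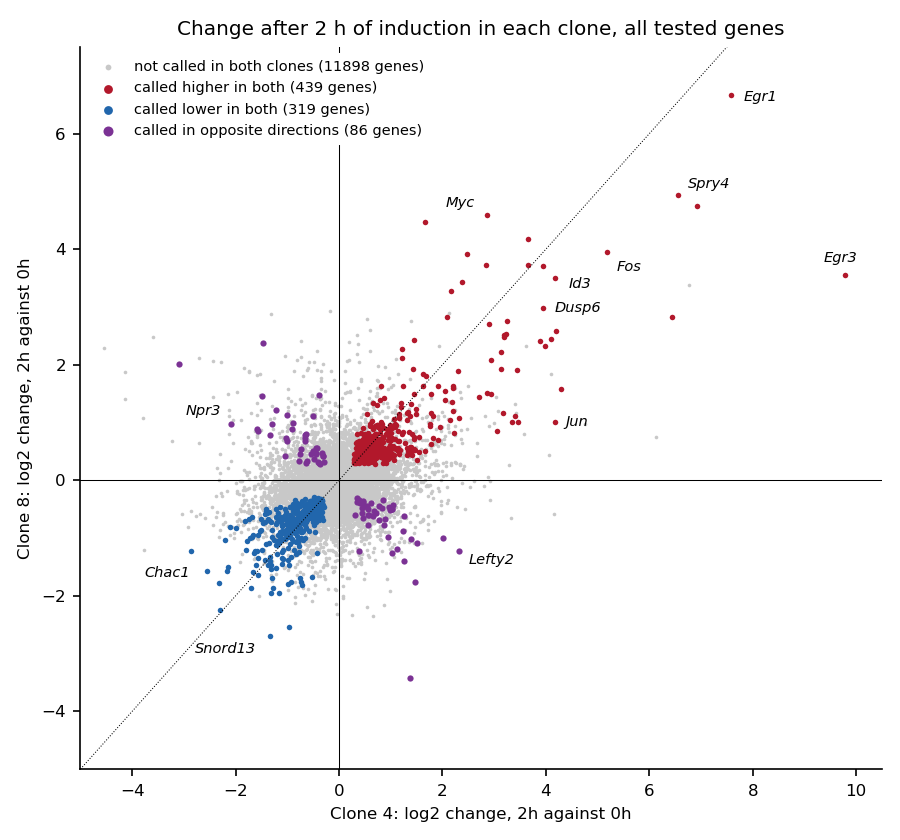
Log2 change at 2h against 0h in clone 4 (horizontal) and clone 8 (vertical), 1 point per tested gene; red and blue points were called in both clones in the same direction, purple points in opposite directions, and the dotted line marks equal change. Egr1, Spry4 and Fos lie far to the upper right, Jun lies below the line and Myc above it; 2 genes fall outside the axes.

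Calls in opposite directions were few, 86 genes (0.675%), 46 higher in clone 4 and 40 higher in clone 8. Lefty2 had the strongest contrast. It stood at 13.2 and 9.70 CPM at 0h and 56.3 and 55.6 CPM at 2h in clone 4, and at 75.6 and 90.5 CPM at 0h and 32.0 and 38.5 CPM at 2h in clone 8. The 0h levels of the clones thus lay further apart than their 2h levels, and the difference of the changes was -3.54 ± 0.27 (SE, adjusted p = 1.32e-10). Lefty1 followed the same order, from 15.6 and 9.55 to 31.6 and 21.3 CPM in clone 4 and from 23.1 and 25.9 to 10.6 and 10.7 CPM in clone 8. The 2 genes are close paralogs, and reads can be shared between them. Enpp3, an ectonucleotidase, rose by 1.38 in clone 4 and fell by 1.01 in clone 8. Npr3, the clearance receptor of natriuretic peptides, fell by 2.08 in clone 4 and rose by 0.98 in clone 8, from 0h levels of 5.31 to 5.59 CPM and 16.4 to 16.5 CPM. Smpdl3b, a phosphodiesterase of lipid rafts, and Prmt8, a methyltransferase, also fell in clone 4 and rose in clone 8; the difference for Prmt8 was lost without the 0h library 2 of clone 4 (1.26). Efr3b, a plasma membrane anchor protein gene, rose by 2.80 in clone 4, against -0.10 in clone 8.

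**Figure D4:**
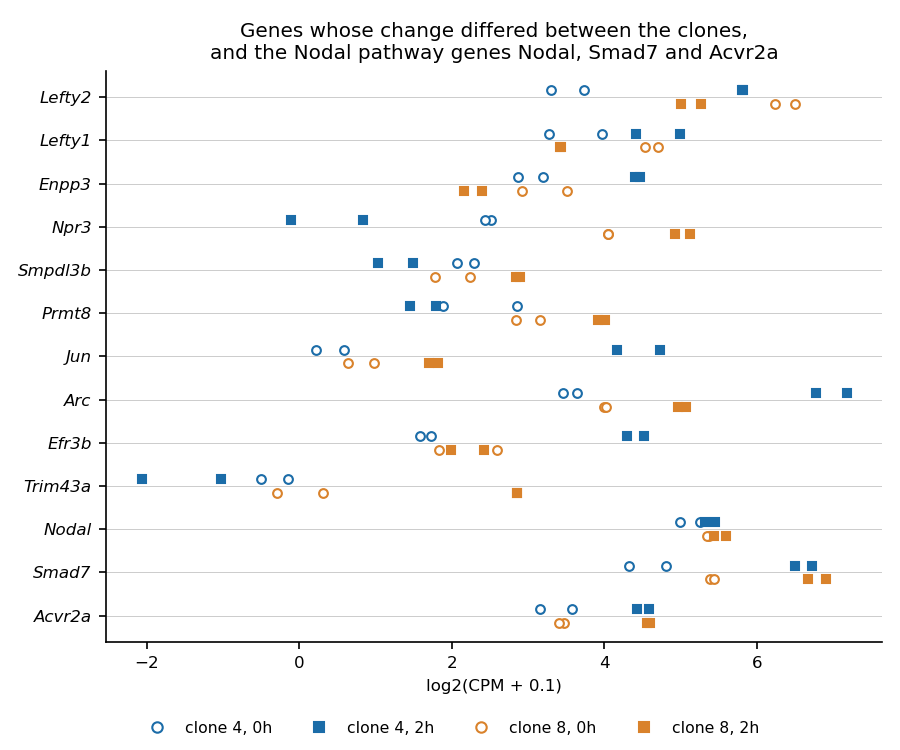
Level in each library, as log2(CPM + 0.1), of genes whose change differed between the clones and of Nodal, Smad7 and Acvr2a; symbols as for the named rises and falls. For Lefty2 and Lefty1 the filled squares lie to the right of the open circles in clone 4 and to the left in clone 8, whereas Acvr2a moves to the right in both.

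Most tested genes of the 2-cell-like state, which a small share of mouse embryonic stem cells enters, were called higher in clone 8. The summed level of the list rose in both clones, but the median log2 change of its members was -0.51 in clone 4 and 1.92 in clone 8. The clone 4 sum thus does not describe the typical member. In clone 4 the sum went from 79.3 to 90.3 CPM at 0h to 129 to 156 CPM at 2h. In clone 8 it went from 87.1 to 90.7 CPM at 0h to 155 to 163 CPM at 2h. The change of 2 members differed between the clones. Of 10 tested members 8 were called higher with clone as covariate (5 by DESeq2), 9 in clone 8 and 1 in clone 4, where 1 other was called lower and was higher in clone 8. None was lower with clone as covariate by either tool or at an unadjusted p under 0.05. Zscan4d, a zinc-finger gene of this state, stood at 2.28 and 1.72 CPM at 0h and at 9.19 and 8.90 CPM at 2h in clone 8, while in clone 4 it was at 0.40 and 0.30 CPM at 0h and 0.39 and 0.00 CPM at 2h. Usp17la, a deubiquitinase gene of a multicopy family, stood at 1.97 and 2.30 CPM at 0h and 8.36 and 10.9 CPM at 2h in clone 8 and below 0.50 CPM in the 4 clone 4 libraries. Trim43a was at 1.14 and 0.72 CPM at 0h and 7.14 and 7.15 CPM at 2h in clone 8, and its difference between the clones passed the test (4.19 ± 0.90, adjusted p = 0.00286). For Zscan4d (adjusted p = 0.125), Usp17la (0.346) and Zfp352 (0.0775) the difference did not pass it. These families hold near-identical copies, so counts of single members are uncertain. The count of 8 was 4 without the 0h library 1 of clone 8, 3 without the 0h library 2 and 5 without the 2h library 2 of that clone. The clone 8 2h libraries are also those with the lowest share of ribosomal features (46.7% to 52.1%), and its part in this rise was not tested.

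Raised and lowered genes differed in length and base composition. Among tested protein-coding genes the median span was 24.9 kb and the median GC content of the longest transcript 49.9%. Raised genes had medians of 33.4 kb and 45.5%, and lowered genes 17.9 kb and 53.8%. The genes that rose by at least 2 on the log2 scale were shorter and richer in GC than the rises as a whole: their median span was 7.79 kb, their median GC content 53.3% and their median number of exon blocks 4, against 10 for all. When these genes were split by GC content into 5 bins of equal size, the bin of lowest GC had 18.8% called higher and 2.91% lower, and the bin of highest GC 4.46% higher and 13.5% lower. The median log2 change went from 0.14 to -0.16 over these bins, from 0.14 to -0.12 in clone 4 and from 0.13 to -0.18 in clone 8. With a correction for GC content in each library 1831 genes were called, and 1530 of the 2162 calls (70.8%) were kept in their direction. Under it 12 early transcription factors, 10 feedback inhibitors and 13 cytoskeletal genes were called higher, and 7 genes of the ATF4 list lower. The called rises were 5 among the ETS factors and 2 among the cascade members, against 8 and 4 without the correction. The part of base composition in the small changes was not tested.

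**Figure D5:**
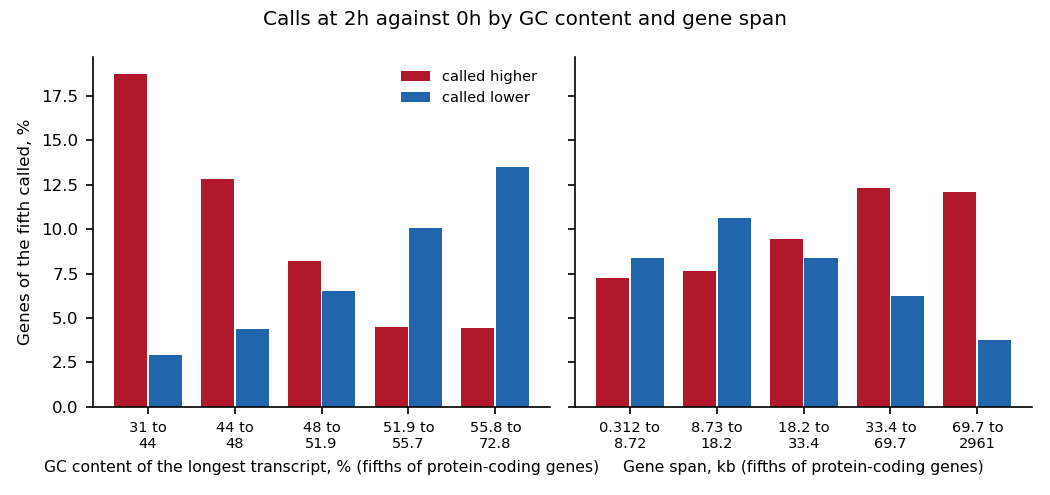
Share of tested protein-coding genes called higher (red) or lower (blue) at 2h against 0h, in 5 bins of equal size by GC content of the longest transcript (left) and by gene span (right). The share called higher runs from 18.8% in the lowest GC bin to 4.46% in the highest, and the share called lower from 2.91% to 13.5%.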

How the data were processed

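The deposited values are raw counts in 1 table, with a column for each library and a row for each of 52636 Ensembl genes; the authors did not normalize them. Libraries were made with a NEBNext Ultra II kit from RNA freed of rRNA, per the labels' protocols. The submitters' processing notes name bcl2fastq 2.19.1, STAR 2.5.3a and mm10, with no role given. The counting program and its strand setting are not given in the sources used here. Symbols and coordinates came from GENCODE M21 (GRCm38), which matched 52489 IDs, and promoter sequences from RefSeq (GRCm38.p6).

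Groups came from the sample titles. The low-count filter was filterByExpr, with the group labels, a minimum count of 10 and a minimum total of 15; 12742 genes passed, and libraries were scaled by TMM. Tests were edgeR's quasi-likelihood tests (edgeR 4.0.16, R 4.3.3) over all 16 libraries with clone as covariate, and, for single clones and their difference, with a mean for every pairing of group and clone (clone 8 change minus clone 4 change). P-values were adjusted by Benjamini-Hochberg across the 12742 genes. An SE is the absolute log2 change over the root of edgeR's F. CPM values are TMM-scaled over the kept genes, on which the floor of 3 counts equals 0.21 to 0.60 CPM. The floor and the exact 95% intervals take in counting error only, as reads lack molecular identifiers. Replicate libraries of a clone at 0h and 2h were not duplicates of one library, with a chi-square over its degrees of freedom of 4.45 to 20. Library numbers 1 and 2 were not taken as pairs: within a clone, same-numbered libraries did not deviate together (r of -0.037 to 0.001). The procedure was tested on artificial counts.

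Genes were named by rule. From calls with at least 50 mean counts in the higher group and no predicted-gene name came the 15 largest rises and falls whose libraries did not overlap within either clone, the 6 leading shared rises and falls, 3 of each order for opposite changes and for clone differences, and the 5 largest gains and losses in CPM. From each list came up to 4 called members per direction, and defining members whatever their values; some genes the rule takes in are not reported here, and further list members named with a value were chosen after it was seen. The comparison, its gene lists and tests were chosen with earlier results of these data known. Alternatives covered scaling, filters, DESeq2 1.42.0, covariates, thresholds and each library left out; the GC correction and the totals outside features above 1% were added after seeing the data.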

Additional observations from a re-analysis of the deposited data

Results flagged for a closer look

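The change at 2h against 0h differed between the clones in 33 of the 136 genes named for display, by edgeR's test of the difference at an adjusted p under 0.05. It was more positive in clone 4 in 22 and in clone 8 in 11. Some of the 136 were named because their change differed or had opposite calls, which raises this count. Over all 12742 tested genes the change differed in 1012 (7.94%). Each difference below is the clone 8 log2 change minus the clone 4 log2 change. Among genes called higher in both clones, the rise was larger in clone 4 for Spry4 (-1.60), Jun (-3.18), Cavin1 (-2.73), Arc (-2.44), Arid5b (-1.21), Pmaip1 (-1.44), Cyp51 (-0.91), Insig1 (-0.52), Hmgcs1 (-0.55), Cdkn1a (-0.72) and Smad7 (-0.67). It was larger in clone 8 for Myc (1.73) and Dppa2 (0.59). Among genes called lower in both, the fall was larger in clone 8 for Camk2n1 (-1.10) and Nupr1 (-1.01), and larger in clone 4 for Pla2g1b (1.29) and Ddit4 (0.80).

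Of the genes called in clone 4 alone, Efr3b (-2.90), Nr5a2 (-0.94), Utf1 (-0.76), Krt8 (-1.96) and Krt18 (-2.02) rose there, and Prdm14 (1.14), Vegfa (0.66) and Cdkn1b (0.86) fell there. In clone 8 alone Trim43a rose (4.19) and Tpi1 fell (-0.69). Opposite calls differed by -3.54 for Lefty2, -2.31 for Lefty1, -2.40 for Enpp3, 3.06 for Npr3, 1.80 for Smpdl3b and 1.87 for Prmt8.

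In 9 of 272 groups of 4 libraries examined, 1 library stood apart from the other three by Dixon's criterion, which chance meets in about 1 in 20 groups. The 0h library 1 of clone 4 was apart for Rgma (6.99 CPM), Plk2 (26.2 CPM) and Mdm2 (94.5 CPM), and the 0h library 2 of clone 4 for Dab2 (0.15 CPM) and Pax6 (4.70 CPM). The 0h library 1 of clone 8 was apart for Egr3 (0.10 CPM) and Gbx2 (1.45 CPM). At 2h, library 1 of clone 4 was apart for Cdk2 (47.2 CPM) and library 2 of clone 4 for Thbs1 (3.32 CPM).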

How the results depend on the processing

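The counts compared are genes called at 2h against 0h (2162), in clone 4 (3019), in clone 8 (2011), in both clones in the same direction (758) and with a change that differed between the clones (1012). In that order, library totals as scaling gave 446, 946, 972, 146 and 476, an adjusted p under 0.01 gave 921, 1726, 984, 326 and 416, and an absolute log2 change of at least 1 gave 406, 864, 499, 122 and 449. DESeq2 gave 2077 at 2h against 0h, but 1946 and 992 in the clones, 392 in both and 526 for the difference. Without the clone covariate 757 were called, and clone 8 fitted alone gave 3135. Leaving out 1 library gave 1272 to 1835, 1542 to 2877, 852 to 2206, 359 to 722 and 424 to 1149. The lowest of the first came without the 0h library 1 of clone 4, and of the second without the 2h library 2 of clone 4 (1918 without the 0h library 2). Each clone 8 library left out lowered the clone 8 calls to between 852 and 1196 and the shared calls to between 359 and 490. With the library number as a replicate block the counts were 1834, 2915, 1912, 733 and 926. Totals outside the abundant features gave 2205, 3163, 1978, 757 and 999, and the GC correction 1831, 2911, 1773, 627 and 1108; both were chosen after seeing the data. Library totals moved the median log2 change of all genes to -0.21 in clone 4 and 0.37 in clone 8. Where a setting moved a count, the cause was not tested. Depth limits genes below the floor of 3 counts, 0.21 to 0.60 CPM.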
